A study of Mus musculus with 68 samples.

Results

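Collagen chain genes were taken as all genes of the array's annotation whose symbol is Col, a number, the letter a and a number, as in Col1a1. The rule found 42 genes on 82 probe sets, among 18194 annotated genes. Each gene was read from its probe set with the highest mean. The measure is the deposited RMA value on the log2 scale, so that a difference of 1 is a doubling of signal. Tests were run on genes that reached, at the 95th percentile over tumours, more than 5.42, which is the median of all values in the table. By this filter 31 chains were tested, among 12560 genes, and 11 were not. The chains below the filter were Col4a3, Col6a4, Col6a5, Col10a1, Col11a2, Col13a1, Col19a1, Col22a1, Col23a1, Col24a1 and Col26a1. Probe sets differ in how brightly they report a transcript, so the levels below are compared within a gene and never between genes.

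The study profiled spontaneous mammary tumours of mice with the MMTV-PyMT transgene, which the labels describe as a ((NZB x PyMT) x FVB) backcross. The MMTV promoter drives the polyoma middle T oncogene mainly in mammary epithelium. All animals belong to 1 group, and no untreated tissue, age or per-animal genotype was used here. The series holds 68 arrays. The values below come from 56 of them, each from a different animal, whose mean over control probe sets for 18S ribosomal RNA was below 8 (at most 6.84). On the 12 arrays left out, that mean was 8.97 or higher. The titles carry an animal number and, on 8 of the 56 arrays, the suffix R. Of the animals, 41 have numbers up to 3891 and 15 have numbers of 4946 or more, and neither mark is explained in the labels. Sharp splits in the values of many probe sets divide the 56 arrays into array set 1 (n = 39), array set 3 (n = 9, with all 8 arrays of suffix R) and array set 4 (n = 8, all in the upper number range). These sets are not groups of the study, and values within array set 1, the widest of them, are given beside the pooled ones. The mean over 11 luminal and epithelial markers, among them Krt8, Krt18 and Epcam, lay between 9.002 and 10.25 in all 56 tumours. As each array is a separate animal, p-values refer to variation between tumours. Pooled p-values of chain pairs also take in differences between the array sets. Col1a1, for example, averaged 11.03, 10.70 and 11.69 in array sets 1, 3 and 4.

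Collagens are trimers of chains wound into a triple helix. Fibrillar collagens (types I, II, III, V, XI, XXIV and XXVII) form the tensile fibres of connective tissue, and in tumours they come largely from fibroblasts. Type IV collagen is the network former of basement membranes, which lie under epithelium and around vessels, while types VII and XVII anchor epithelial cells to that membrane. Other types decorate fibrils (IX, XII, XIV, XVI), form beaded filaments (VI) or short-chain networks (VIII, X).

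Most collagen chains varied more between tumours than the typical gene. The median SD of the 31 tested chains was 0.44, against 0.23 over all tested genes, and 30 of the 31 lay above that median. By class, the median SD was 0.46 for 9 fibrillar chains, 0.44 for 3 beaded filament chains, 0.41 for 7 fibril-associated chains and 0.38 for 7 basement membrane chains. Col20a1 was the exception, with an SD of 0.15. Col25a1 (SD 0.86), Col11a1 (0.76), Col2a1 (0.73) and Col17a1 (0.66) were among the 5% of tested genes with the largest SD. In these bulk samples, fewer cells of a type and less RNA per cell cannot be told apart.

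**Figure D1:**
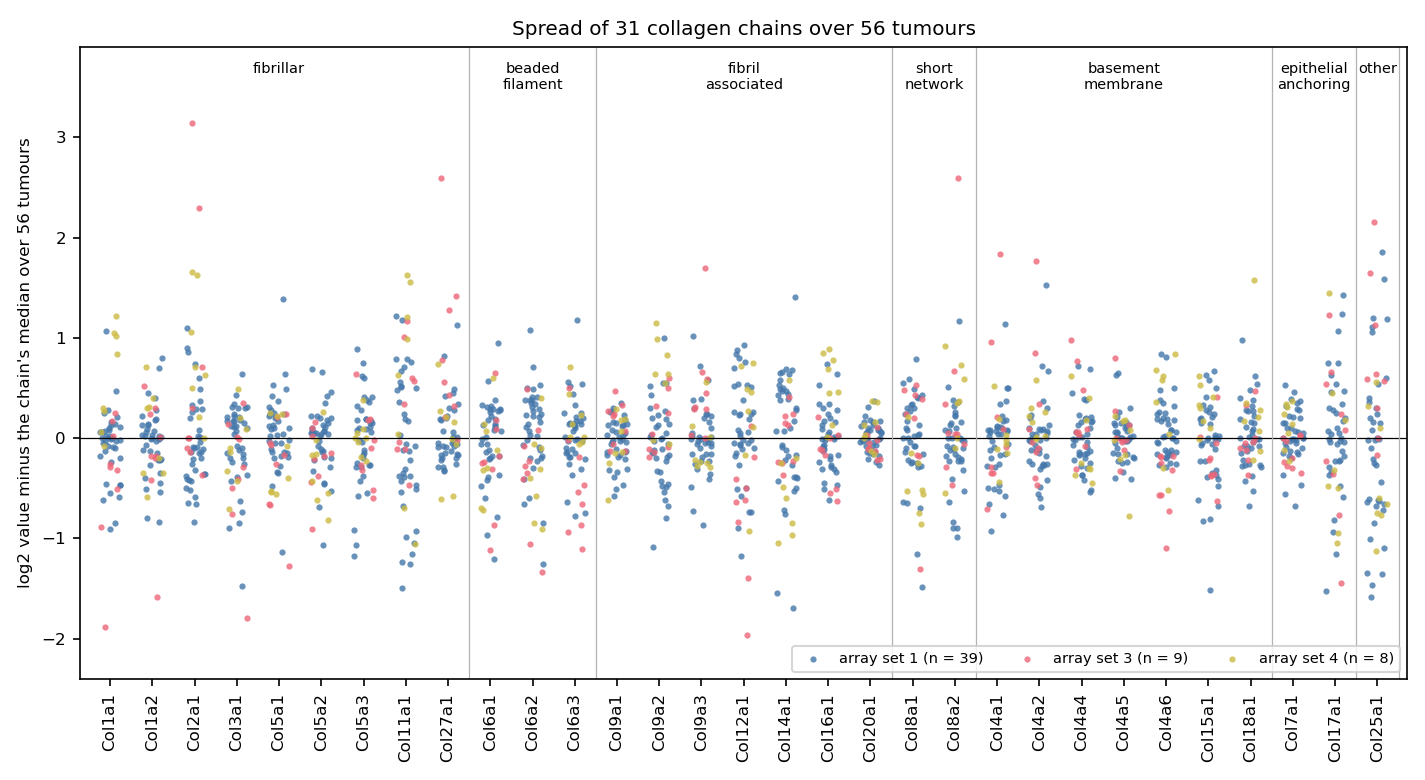
Each point is 1 tumour, and the vertical axis is its log2 value minus the chain's median over 56 tumours; chains are ordered by class and colours mark the 3 array sets. Col20a1 (SD 0.15) forms the tightest column and Col25a1 (SD 0.86) a wide one. The highest points of Col2a1, Col27a1, Col8a2, Col4a1 and Col4a2 are of array set 3. For Col4a2, a point of array set 1 (10.50) lies close below the highest (10.73).

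A few tumours lay at the ends of many chains. Tumour 3854, of array set 3 and with suffix R, had the lowest value of all in 7 chains and the highest in another 7. Its low chains were Col1a1, Col1a2, Col3a1, Col5a1, Col6a2, Col12a1 and Col4a6, and its high ones Col4a1, Col4a2, Col4a5, Col9a1, Col9a3, Col8a2 and Col25a1. For several results that rest on tumour 3854, values without it are given as well. Tumours 3739 and 3853, both of array set 1, were among the 3 lowest in 10 and 11 chains. Tumour 3296 had the highest value in several stromal chains, among them Col3a1, Col5a1, Col6a1, Col6a2, Col6a3 and Col14a1.

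The type I collagen chains moved together. Col1a1, which encodes the alpha 1 chain of type I collagen, ranged from 9.23 to 12.32 with a median of 11.11. Its partner Col1a2 ranged from 10.35 to 12.73 with a median of 11.93. Tumour 3854 was lowest for both, and the highest Col1a1 value belonged to array set 4. Over 56 tumours, Pearson r of the pair was 0.838 and Spearman rho 0.773, each with a permutation p of 1e-05, the smallest that 100000 draws can give. Both stayed past the threshold after Benjamini-Hochberg adjustment over the 22 chain pairs computed (2.2e-05 for r and 2.44e-05 for rho). Without the 2 tumours farthest from the median of Col1a1, r was 0.760. Within array sets 1, 3 and 4 it was 0.894, 0.967 and 0.983.

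Chains of types III, V and VI rose with Col1a1. In a limma fit of every tested gene on Col1a1, with number range and suffix R as covariates, 12 of 30 chains were higher where Col1a1 was higher, at an adjusted p under 0.05. Of all genes tested, 13% were called in that direction. Another 2 chains were lower, against 11.7% of all genes. By class, the higher chains were 5 of 8 fibrillar, 3 of 3 beaded filament, 2 of 7 fibril-associated and 2 of 7 basement membrane chains, and 0 of 2 epithelial anchoring chains (0 also at an unadjusted p under 0.05 in limma). The median r with Col1a1 was 0.245 over the 30 chains and 0.055 over all tested genes.

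Col3a1, the type III chain that forms fine fibrils with type I, ranged from 10.77 to 13.20 with a median of 12.56. It was 0.41 higher on the log2 scale per SD of Col1a1, where 1 SD is 0.51 (SE 0.04, adjusted p = 5.14e-11). Col5a1 and Col5a2, whose products set fibril diameter, had medians of 8.70 and 10.54. Col5a1 ran from 7.42 to 10.08 and Col5a2 from 9.47 to 11.23. They correlated with each other at r = 0.832 and rho = 0.852 (permutation p = 1e-05 for both, adjusted 2.2e-05 and 2.44e-05), with r = 0.857 without the 2 tumours farthest from the median and 0.866 within array set 1. Their slopes on Col1a1 were 0.35 (SE 0.04, adjusted p = 1.72e-09) and 0.24 (SE 0.04, adjusted p = 1.41e-05). Col5a3 had a slope of 0.24 (SE 0.05, adjusted p = 0.000963).

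Type VI collagen forms beaded microfilaments around cells and between fibres. Col6a1 ranged from 8.33 to 10.48, Col6a2 from 8.66 to 11.07 and Col6a3 from 8.42 to 10.70. Col6a1 and Col6a2 followed each other more closely than any other pair among the 465 pairs of tested chains, with r = 0.961 and rho = 0.947 (permutation p = 1e-05 for both). Leaving out the 2 farthest tumours gave r = 0.950, and array sets 1, 3 and 4 gave 0.983, 0.994 and 0.981. Col6a1 with Col6a3 reached r = 0.777 (rho 0.795, permutation p = 1e-05 for both), 0.736 without the 2 farthest tumours and 0.832 within array set 1. Slopes on Col1a1 were 0.40 for Col6a1 (SE 0.04, adjusted p = 8.49e-12), 0.38 for Col6a2 (SE 0.05) and 0.33 for Col6a3 (SE 0.04). As a description, the median r over the 27 pairs of a fibrillar and a beaded filament chain was 0.704, and 0.810 within array set 1. Over all pairs of tested chains it was 0.083, and over all pairs of tested genes 0.0098.

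**Figure D2:**
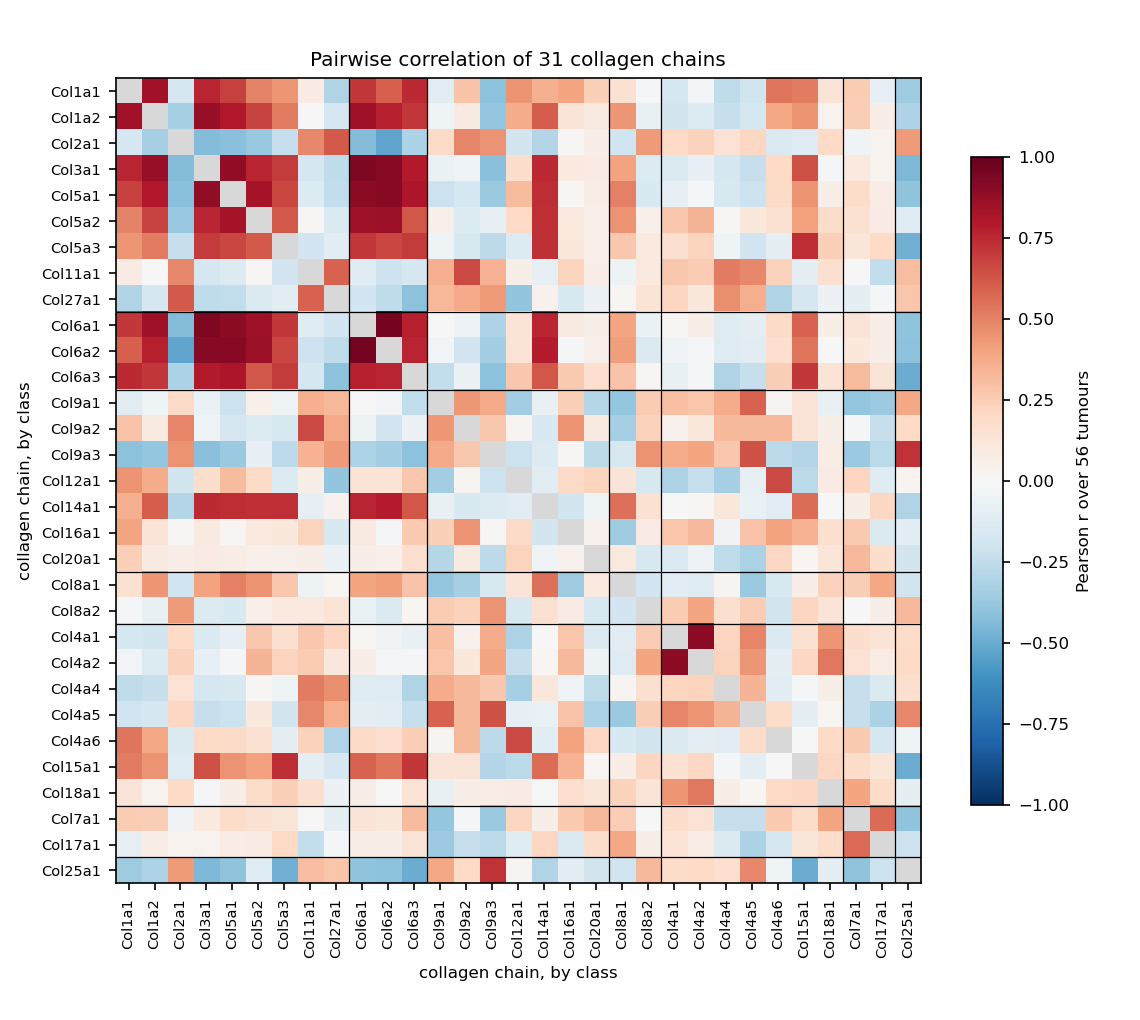
Each cell is Pearson r between 2 of the 31 tested chains over 56 tumours, from blue (negative) to red (positive), with chains in the same order on both axes and lines between classes. Types I, III, V and VI with Col14a1 form a red group, dark for Col6a1 with Col6a2 (0.961). It is paler for Col1a1 with Col14a1 (0.359) and with Col5a3 (0.439). Col4a1 and Col4a2 form a separate pair (0.895), and Col7a1 with Col17a1 another (0.566).

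Among the chains that sit on fibrils, the picture was mixed. Col14a1, which binds fibril surfaces, ranged from 7.05 to 10.14 with a median of 8.74, and its slope on Col1a1 was 0.34 (SE 0.07, adjusted p = 0.00047). Col12a1, of the same class, ranged from 6.13 to 9.02. Its slope of 0.20 (SE 0.07, adjusted p = 0.0391) was 0.03 within array set 1 (adjusted p = 0.861) and 0.13 without tumour 3854 (adjusted p = 0.185). Col12a1 and Col14a1 correlated with each other at r = -0.113 (rho -0.132, permutation p = 0.407 and 0.332, adjusted 0.427 and 0.406; -0.178 without the 2 farthest tumours and -0.222 within array set 1). Col15a1, a basement membrane zone collagen, rose by 0.23 per SD of Col1a1 (SE 0.06, adjusted p = 0.00198; 0.22 and adjusted p = 0.0262 within array set 1). Col4a6 rose by 0.15 (SE 0.04, adjusted p = 0.00975), but by 0.02 within array set 1 (adjusted p = 0.87). Within array set 1, 10 of 29 chains were higher with Col1a1 (5.48% of all genes): Col1a2, Col3a1, all 3 type V chains, all 3 tested type VI chains, Col14a1 and Col15a1.

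Col9a3 and Col25a1 fell as Col1a1 rose. Col9a3, a type IX chain known from cartilage, ranged from 7.85 to 10.41 and had a slope of -0.16 (SE 0.05, adjusted p = 0.0197). Without tumour 3854, which held its highest value, the slope was -0.08 (adjusted p = 0.226), and without tumour 3853 the call was lost as well. With its probe set of largest SD the slope was -0.02 (adjusted p = 0.815), and with the array set as covariate -0.14 (adjusted p = 0.0665). Col25a1, a transmembrane collagen, ranged from 5.44 to 9.18 with a slope of -0.31 (SE 0.11, adjusted p = 0.0406), and -0.22 without tumour 3854 (adjusted p = 0.149). The other probe set of Col25a1 correlated with the probe set used at r = 0.0114, so that its values depend on the probe set. Col9a3 and Col25a1 correlated with each other at r = 0.719, given as a description, with tumour 3854 highest for both. In array set 1, and without tumour 3854, limma called 0 chains lower with Col1a1 (1.18% and 8.53% of all genes). At an unadjusted p under 0.05, 0 chains were lower either, against 1061 of 12494 and 1832 of 12551 genes.

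Windows upstream of the start are shown for 3 chains of the group that moved with Col1a1, 1 each of types I, III and VI, because these chains changed together across tumours. The RefSeq table (GRCm38.p6) held windows for 33 of the 42 chains, and Col1a1 is not among them. Each line is the 250 bases before the annotated start, 5′ to 3′ on the gene's strand. Capitals mark matches to CCAAT, which reads ATTGG where it lies on the opposite strand. They also mark matches to TATAAA, which then reads TTTATA. The Col1a2 window is chr6:4505368-4505617 (plus strand), the Col3a1 window chr1:45311288-45311537 (plus strand) and the Col6a1 window chr10:76726045-76726294 (minus strand).
Col1a2: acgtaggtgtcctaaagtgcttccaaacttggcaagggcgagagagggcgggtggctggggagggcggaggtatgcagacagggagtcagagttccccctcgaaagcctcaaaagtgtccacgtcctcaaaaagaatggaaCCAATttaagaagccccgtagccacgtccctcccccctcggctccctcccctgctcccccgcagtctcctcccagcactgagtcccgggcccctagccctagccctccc
Col3a1: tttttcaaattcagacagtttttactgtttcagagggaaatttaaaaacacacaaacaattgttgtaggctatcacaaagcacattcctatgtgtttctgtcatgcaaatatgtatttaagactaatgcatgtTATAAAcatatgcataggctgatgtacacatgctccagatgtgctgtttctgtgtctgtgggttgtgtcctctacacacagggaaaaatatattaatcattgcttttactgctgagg
Col6a1: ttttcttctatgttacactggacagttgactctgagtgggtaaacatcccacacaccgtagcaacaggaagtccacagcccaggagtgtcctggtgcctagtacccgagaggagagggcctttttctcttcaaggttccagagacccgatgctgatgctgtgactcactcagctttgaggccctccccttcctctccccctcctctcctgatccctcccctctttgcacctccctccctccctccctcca
The Col1a2 match to CCAAT begins 109 bases before the start, and the Col3a1 match to TATAAA 117 bases before it. Neither motif is in the Col6a1 window. CCAAT is in 33.8% of all 32851 windows of the table and in 13 of the 36 windows of collagen chains. TATAAA is in 12.4% of all windows and in 5 of those 36. A match is a description of the letters and not a shown binding site.

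Other matrix genes and stromal markers moved with Col1a1. Of 16 tested matrix proteins that are not collagens, 11 rose and 0 fell, and the median r was 0.438. Lumican (Lum) and decorin (Dcn), which bind fibrils, had slopes of 0.56 (SE 0.08, adjusted p = 1.09e-06) and 0.48 (SE 0.08, adjusted p = 1.4e-05). Biglycan (Bgn) had a slope of 0.37 (SE 0.04, adjusted p = 4.81e-09). Of 15 genes for collagen synthesis and crosslinking, 7 rose and 1 fell, with a median r of 0.323. Those that rose included the crosslinking oxidases Lox (0.32, SE 0.05) and Loxl1 (0.42, SE 0.05), the collagen chaperone Serpinh1 (0.20, SE 0.05) and the C-propeptidase Bmp1 (0.22, SE 0.03). Plod2, a lysyl hydroxylase of telopeptides, fell (slope -0.33, SE 0.09, adjusted p = 0.00633). Its slope did not pass within array set 1 (adjusted p = 0.2).

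Markers of fibroblasts rose in 10 of 11 tested, with a median r of 0.417, and those of endothelium in 10 of 12, with a median r of 0.567. Of 7 adipocyte markers 6 rose, and of 11 luminal and epithelial markers 4 rose. Of 10 basal and myoepithelial markers 0 rose and 1, Itga6, fell. Within array set 1, the counts that rose were 10 for fibroblasts, 9 for endothelium, 1 for adipocytes and 0 for luminal markers. The mean level over the fibroblast markers ranged from 6.57 to 9.10 between tumours, over the endothelial markers from 5.86 to 7.05 and over the adipocyte markers from 5.74 to 10.39. The part of these markers in the collagen results was not tested. Of 10 markers each for pericytes and smooth muscle and for skeletal muscle, and of 8 for squamous epithelium and skin, limma called 0 with Col1a1. At an unadjusted p under 0.05, 2, 1 and 0 of these were higher and 0 lower, against 2422 and 2243 of all 12559 genes. With Col1a1, 4 of 11 receptors for collagen and laminin rose and 1 fell, and 4 of 13 other basement membrane genes, 1 of 5 markers of peripheral nerve and 1 of 4 of cartilage and bone rose. In array set 1, these counts that rose were 1, 4, 1 and 0. Of all tested genes, 13% rose and 11.7% fell with Col1a1, and 5.48% rose in array set 1.

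The genes whose pattern was most like that of Col1a1, by Pearson r among genes past the threshold that are no collagens, were Mmp23 (0.871), Tmem119 (0.801), Ace (0.797), Mfap4 (0.778), Cd74 (0.772), C1qc (0.764), Apbb1ip (0.755), Tmem176a (0.753), Fes (0.753) and B4galnt1 (0.748). Mfap4 encodes a microfibril protein, Cd74 the invariant chain of MHC class II and C1qc a complement chain of macrophages. In array set 1, r was 0.792 for Mmp23, 0.794 for Mfap4, 0.709 for C1qc and 0.683 for Apbb1ip. It was lower there for B4galnt1 (0.606), Cd74 (0.599), Ace (0.595), Tmem119 (0.533), Tmem176a (0.487) and Fes (0.442). Of these, Fes did not pass in array set 1 (adjusted p = 0.0531).

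Col1a1 also moved with measures of the arrays. Its r with the mean of the 18S control probe sets was -0.402 (rho -0.356, permutation p = 0.00197 and 0.00723, adjusted 0.0177 and 0.0398 over 9 relations), and -0.345 without the 2 farthest tumours. With the Actb 3′ minus 5′ difference, a measure of RNA quality, r was -0.366 (rho -0.350, permutation p = 0.00569 and 0.00884, adjusted 0.0256 and 0.0398), and -0.335 without the 2 farthest tumours. The values in array set 1 were -0.152 and -0.282. Over 56 tumours, Col4a1 and Col17a1 passed for none of the 3 measures tried, the Gapdh 3′ minus 5′ difference included. For Col4a1 with the Gapdh difference, r was 0.247 (rho 0.225, permutation p = 0.0652 and 0.0948, adjusted 0.196 and 0.285), 0.226 without the 2 farthest tumours and 0.418 in array set 1. The part of RNA quality in the collagen results was not tested.

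**Figure D3:**
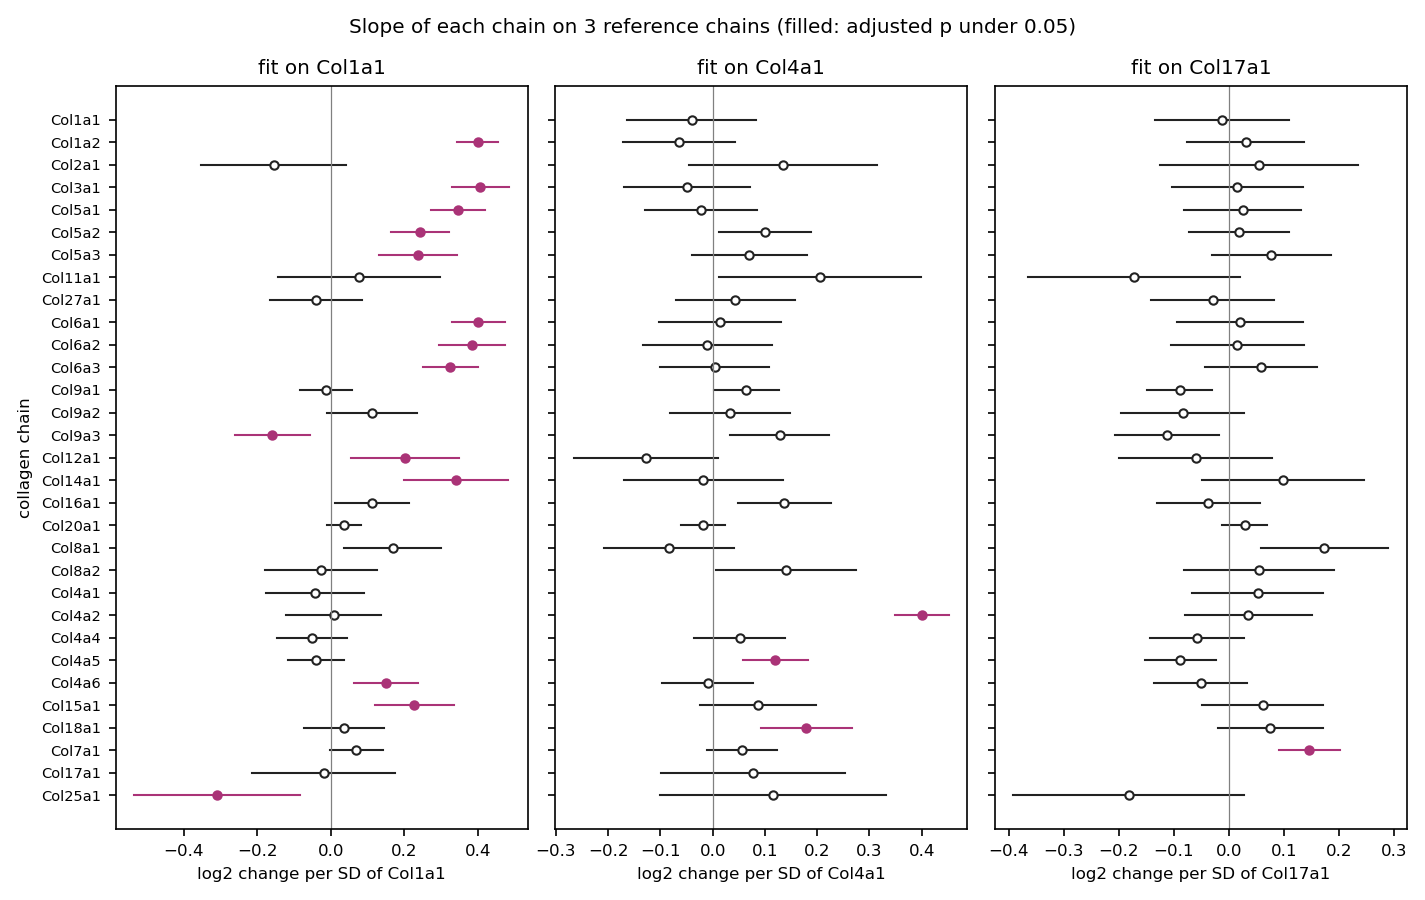
Points are limma slopes of each chain (log2 change per SD of the reference chain, over 56 tumours) on Col1a1, Col4a1 and Col17a1, with bars for 95% normal intervals; filled points passed an adjusted p under 0.05. With Col1a1, 12 chains pass to the right of 0 and 2 to the left; with Col4a1, 3 pass; and with Col17a1, Col7a1 passes.

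The major basement membrane chains formed a second group. Col4a1 and Col4a2, whose products join in the most widespread type IV trimer, ranged from 9.62 to 12.38 (median 10.54) and from 8.28 to 10.73 (median 8.97). Tumour 3854 was highest for both, and the second-highest values were 11.68 and 10.50. The pair correlated at r = 0.895 and rho = 0.765 (permutation p = 1e-05 for both, adjusted 2.2e-05 and 2.44e-05). Leaving out tumour 3854 gave r = 0.851, leaving out the 2 farthest tumours gave 0.818, and array sets 1, 3 and 4 gave 0.858, 0.958 and 0.899. The 2 genes lie within 1 Mb of each other on chromosome 8, on opposite strands.

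With Col4a1, 3 of 30 chains were higher (1.93% of all genes) and 0 were lower (0.279% of all genes). At an unadjusted p under 0.05, limma gave 9 chains higher and 0 lower, against 1094 and 841 of all 12559 genes. With trend and robust settings, limma called the same counts of 3 and 0. The 3 chains all belong to the basement membrane class, but this depended on the setting. The fibril-associated Col16a1 also passed with the second probe set of Col4a1 (adjusted p = 0.00409) and without suffix R (adjusted p = 0.0425). Col4a2 rose by 0.40 per SD of Col4a1, where 1 SD is 0.46 (SE 0.03, adjusted p = 1.73e-17). Col18a1, the source of endostatin, ranged from 7.20 to 9.46 and rose by 0.18 (SE 0.04, adjusted p = 0.015), and by 0.20 within array set 1 (adjusted p = 0.0312). Col4a5 ranged from 9.35 to 10.93 and rose by 0.12 (SE 0.03, adjusted p = 0.0233). Without tumour 3854, its slope was 0.08 (adjusted p = 0.155), and the call was also lost without tumour 3569. Within array set 1, the 2 chains called were Col4a2 and Col18a1 (1.5% of all genes), and 0 were lower (1.39% of all genes).

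Not every pair of partner chains passed the test on r. Col4a5 and Col4a6, neighbours on chromosome X whose products pair in some basement membranes, correlated at r = 0.187 (rho 0.304, permutation p = 0.169 and 0.0232, adjusted 0.218 and 0.0353). Without the 2 farthest tumours r was 0.378, without tumour 3854 it was 0.427, and within array sets 1, 3 and 4 it was 0.352, -0.483 and 0.880. Col8a1 and Col8a2, both of short-chain type VIII, had r = -0.188 (rho 0.0217, permutation p = 0.163 and 0.874, adjusted 0.218 and 0.874), -0.078 without the 2 farthest tumours, 0.048 without tumour 3854 and 0.182 within array set 1. Col8a2 ranged from 4.67 to 8.25, with tumour 3854 highest and the next at 6.82. Type IX chains were intermediate. Col9a1 with Col9a2 gave r = 0.435 (rho 0.425, permutation p = 0.00087 and 0.00133, adjusted 0.00159 and 0.00244) and 0.582 within array set 1. Col9a1 with Col9a3 gave 0.379 (rho 0.302, permutation p = 0.00393 and 0.0241, adjusted 0.00618 and 0.0353). Within array set 1 its r was 0.218 and did not pass (adjusted permutation p = 0.236), nor did 0.241 without suffix R (adjusted permutation p = 0.147). Without tumour 3854, which was highest for both chains, r was 0.288. Leaving out the 2 farthest tumours gave 0.462 for Col9a1 with Col9a2 and 0.352 for Col9a1 with Col9a3.

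Col1a1 and Col4a1, the leading chains of types I and IV, did not pass the test as a pair. Col1a1 with Col4a1 gave r = -0.178 (rho 0.092, permutation p = 0.183 and 0.495, adjusted 0.224 and 0.519), 0.139 without the 2 farthest tumours, 0.128 without tumour 3854 and 0.154 within array set 1. In tumour 3854, Col1a1 was lowest of all (9.23) and Col4a1 highest of all (12.38). Over the 9 fibrillar chains, the median r with Col4a1 was 0.157 and limma called 0. At an unadjusted p under 0.05, 2 of them were higher and 0 lower, against 1094 and 841 of all 12559 genes.

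**Figure D4:**
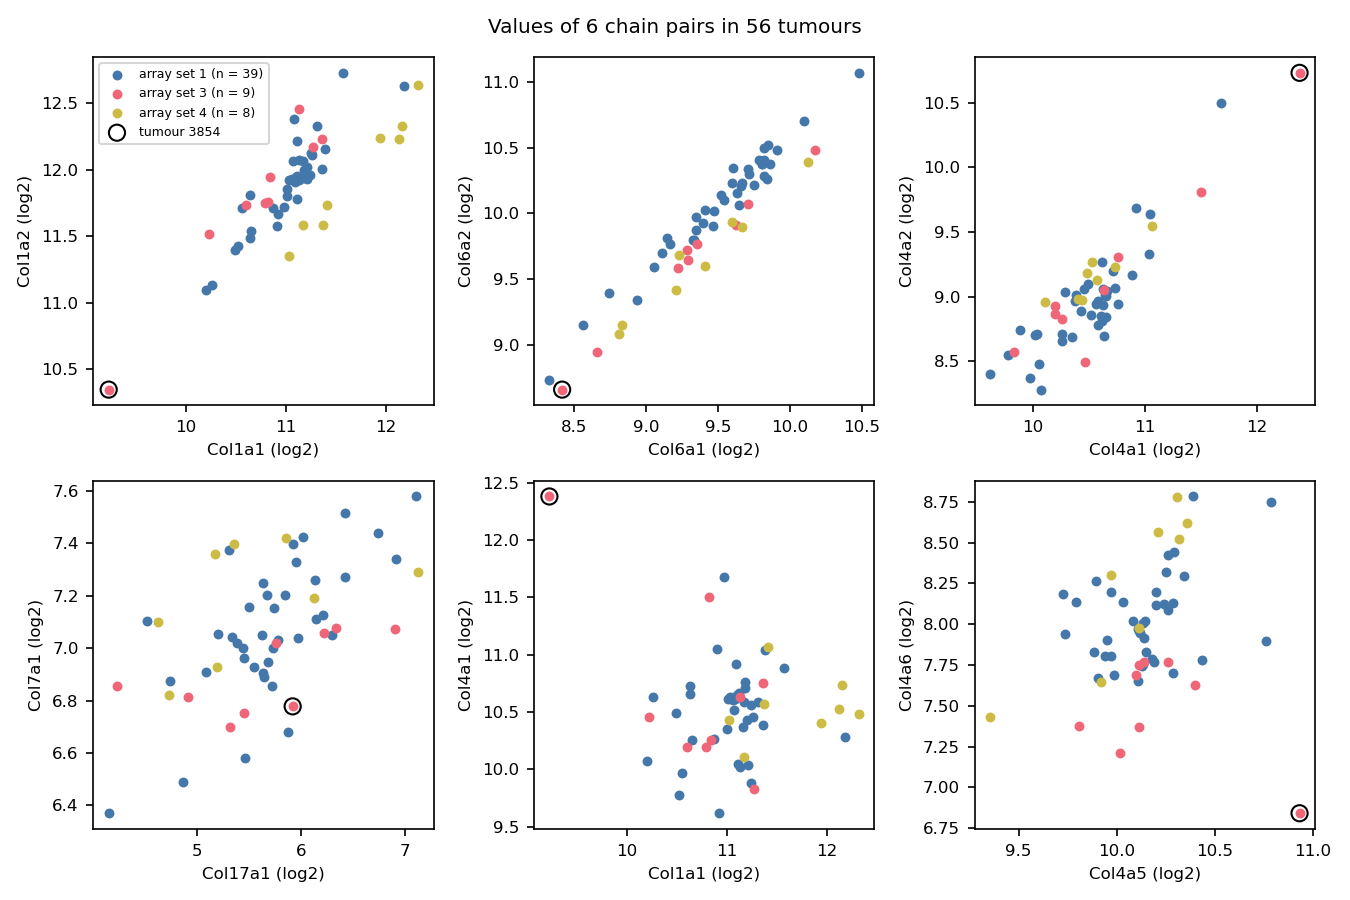
Each panel sets the log2 values of 1 chain against another in 56 tumours, with colours for the array sets and a ring around tumour 3854. Points lie close to a line for Col1a1 with Col1a2 (r = 0.838), Col6a1 with Col6a2 (0.961) and Col4a1 with Col4a2 (0.895). They lie more widely for Col17a1 with Col7a1 (0.566). Over all 56 tumours, Col1a1 with Col4a1 (-0.178) and Col4a5 with Col4a6 (0.187) show little order. Without the ringed tumour, r of these pairs is 0.128 and 0.427.

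Laminins and other basement membrane genes rose with Col4a1 in 6 of 13 tested, with 0 lower and a median r of 0.169, against -0.036 over all tested genes. Lamc1, the gamma chain of most laminins, had the highest r of any gene that is no collagen (0.777, slope 0.27, SE 0.03, adjusted p = 1.29e-09), and 0.722 within array set 1. Nid2, which links laminin to type IV collagen, rose by 0.28 (SE 0.05, adjusted p = 0.000348), but did not pass within array set 1 (adjusted p = 0.197). Lama1, Lama4, Lamb1 and Agrn also rose. In array set 1 the count was 2 of 13, Lamc1 and Agrn, and Lama1, Lama4 and Lamb1 did not pass (adjusted p = 0.122, 0.118 and 0.218). Pxdn, the peroxidase that forms the sulfilimine crosslinks of type IV collagen, was next in likeness to Col4a1 (0.740, and 0.673 within array set 1). The others of the 10 most alike were Sema6d (0.727), Acta2 (0.692), Hmcn1 (0.678), Gria4 (0.677), Il17b (0.673), Calu (0.663), Ccnd2 (0.651) and Ctnnd2 (0.647). Of these, Gria4 had a rho of 0.151.

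Of the genes for collagen synthesis, 5 of 15 rose with Col4a1: P4ha1, Plod1, Crtap, P3h1 and Loxl3. The count was 1, Plod1, within array set 1. Markers of pericytes and smooth muscle rose in 4 of 10 (Acta2, Tagln, Myh11 and Cnn1), against 1.93% of all genes. Within array set 1, 3 of these passed, against 1.5% of all genes. The rest of that list, Rgs5, Cspg4, Des, Notch3, Mcam and Abcc9, was not called. Acta2 is listed among basal and myoepithelial markers too, of which 2 of 10 rose, and 1 within array set 1. The mean level over the 10 markers of pericytes and smooth muscle ranged from 7.002 to 8.29 between tumours. Fibroblast markers rose in 1 of 11 and endothelial markers in 1 of 12. Whether cells with these markers had a part in the Col4a1 results was not tested.

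The epithelial anchoring chains moved with each other. Col17a1, a transmembrane collagen of hemidesmosomes, ranged from 4.15 to 7.12 with a median of 5.67, and tumour 3853 was lowest. Its median lay close to 5.42, the value used as filter, and its lowest values lay below that. Differences among its low values are therefore less certain as measured levels. The array has 1 probe set for Col17a1, so that no other probe set could check its values. Col7a1, which forms the anchoring fibrils under stratified epithelium, ranged from 6.37 to 7.58 with a median of 7.05, and tumour 3853 was again lowest. They correlated at r = 0.566 and rho = 0.531 (permutation p = 1e-05 and 6e-05, adjusted 2.2e-05 and 0.000132). Leaving out the 2 farthest tumours gave r = 0.484, leaving out tumour 3853 gave 0.510, and array sets 1, 3 and 4 gave 0.680, 0.643 and 0.472.

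With Col17a1, 1 of 30 chains was higher, Col7a1 (4.09% of all genes), and 0 were lower (1.7% of all genes). Col7a1 rose by 0.15 per SD of Col17a1, where 1 SD is 0.66 (SE 0.03, adjusted p = 0.000512; 0.17 and adjusted p = 0.0015 within array set 1). At an unadjusted p under 0.05, limma gave 2 chains higher and 3 lower, against 1460 and 1040 of all 12559 genes. With trend and robust settings, limma called the same counts of 1 and 0. Within array set 1, 3 chains were higher (2.47% of all genes), namely Col7a1, Col8a1 and Col18a1, and Col9a3 was lower (1.76% of all genes). The slope of Col8a1 was 0.17 over all 56 tumours (adjusted p = 0.0683) and 0.18 without tumour 3854 (adjusted p = 0.023). Col1a1 with Col17a1 gave r = -0.080 (rho -0.102, permutation p = 0.554 and 0.453, adjusted 0.554 and 0.498), -0.084 without the 2 farthest tumours and 0.277 within array set 1.

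Windows of both anchoring chains are shown because they are the epithelial pair that moved together. They come from the same RefSeq table (GRCm38.p6), with the same 250 bases and the same motifs in capitals. The Col7a1 window is chr9:108953336-108953585 (plus strand) and the Col17a1 window chr19:47692043-47692292 (minus strand).
Col7a1: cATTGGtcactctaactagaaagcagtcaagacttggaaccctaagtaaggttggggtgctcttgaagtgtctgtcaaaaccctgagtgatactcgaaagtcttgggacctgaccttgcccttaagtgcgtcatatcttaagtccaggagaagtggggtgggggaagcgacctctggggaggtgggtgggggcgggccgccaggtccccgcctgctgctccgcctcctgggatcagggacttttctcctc
Col17a1: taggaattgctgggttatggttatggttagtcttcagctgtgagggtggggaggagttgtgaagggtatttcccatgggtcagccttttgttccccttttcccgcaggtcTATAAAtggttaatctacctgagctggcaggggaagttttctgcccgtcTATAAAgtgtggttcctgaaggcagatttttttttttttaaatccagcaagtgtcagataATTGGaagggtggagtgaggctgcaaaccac
The Col17a1 window holds TATAAA at 140 and 91 bases before the start, and CCAAT on the opposite strand at 31 bases. In the Col7a1 window, CCAAT on the opposite strand lies 249 bases before the start.

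Genes of basal and squamous epithelium were the most like Col17a1. Krt5, the keratin of basal cells, had r = 0.865 (slope 0.56, SE 0.04, adjusted p = 2.38e-14) and 0.889 within array set 1. Lama3, the alpha chain of the laminin that binds hemidesmosomes, had r = 0.807 (slope 0.40, SE 0.04, adjusted p = 8.16e-11) and 0.847 within array set 1. The others of the 10 were Anxa8 (0.742), Bnc1 (0.680), Trim29 (0.675), Padi4 (0.664), Sostdc1 (0.658), Nfe2l3 (0.651), Crct1 (0.650) and Pard6g (0.646). Of 8 tested markers of squamous epithelium and skin, 7 rose and 0 fell, with a median r of 0.555, against 0.0050 over all tested genes. Their mean level ranged from 4.46 to 9.92 between tumours. Tchh, a hair follicle protein, had the steepest slope of them (1.58, SE 0.29, adjusted p = 0.000226), followed by Sprr1a of the cornified envelope (1.09, SE 0.19, adjusted p = 0.000206). Of the 8, 4 passed within array set 1. Basal markers rose in 3 of 10 (Krt5, Krt14 and Trp63), and fibroblast markers in 0 of 11 by limma. At an unadjusted p under 0.05, 1 fibroblast marker was higher, against 1460 of all 12559 genes. The part of squamous or skin tissue in the Col17a1 results was not tested.

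Of the chains known best from cartilage, Col2a1 and Col11a1 had SDs of 0.73 and 0.76, and Col9a1 one of 0.24. Col11a1 ranged from 7.69 to 10.81 with a median of 9.18 and a slope on Col1a1 that did not pass. Col2a1, the main cartilage collagen, ranged from 5.15 to 9.12 with a median of 5.98, a span of 15.7-fold. The highest Col2a1 values, 9.12 in tumour 3039 and 8.28, were both in array set 3. Tumour 3039 was also highest for Col27a1 (9.77, with the next at 8.59 and a median of 7.17). Col9a1 ranged from 11.31 to 12.39 and Col9a2 from 6.08 to 8.32. As descriptions, Col11a1 correlated with Col9a2 at r = 0.663 and Col4a5 with Col9a3 at r = 0.634. Tumour 3854 was highest for both Col4a5 and Col9a3. Of 10 annotated markers of cartilage and bone, 4 were tested.

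Correlations of neighbouring chain genes ranged widely. Col3a1 and Col5a2, within 1 Mb on chromosome 1, correlated at r = 0.761 (0.833 within array set 1). On chromosome 10, Col6a1 and Col6a2 correlated at 0.961, while Col18a1, within 1 Mb of both, gave 0.066 and -0.0025 with them. Col9a3 and Col20a1, on chromosome 2, gave -0.262. These are descriptions over the same 56 tumours.

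The marks in the titles allowed 2 contrasts. Against the lower number range, the upper range had 2 of 31 chains higher (6.45%, against 18.5% of all genes) and 0 lower (6.27% of all genes). Both shares of chains were below those of all genes. Col1a1 averaged 11.36 ± 0.54 (SD, n = 15) in the upper and 10.97 ± 0.46 (SD, n = 41) in the lower range, with overlapping values (limma difference 0.39, SE 0.14, adjusted p = 0.0293). Col9a2 averaged 7.50 ± 0.46 and 7.12 ± 0.41, also overlapping (0.38, SE 0.13, adjusted p = 0.0226). With the array set as a covariate, limma called 0 chains and 0 genes in either direction. At an unadjusted p under 0.05, 0 chains were higher and 1 lower, against 685 and 187 of all 12560 genes.

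By suffix R, 4 of 31 chains were higher (12.9%, against 13.7% of all genes) and 4 were lower (12.9%, against 20.8%). In neither direction did the share of chains exceed that of all genes. Col27a1 averaged 8.08 ± 0.84 (SD, n = 8) with R and 7.22 ± 0.33 (SD, n = 48) without (difference 0.86, SE 0.16, adjusted p = 2.36e-05). Col12a1 averaged 7.31 ± 0.64 with R and 8.18 ± 0.51 without (-0.87, SE 0.20, adjusted p = 0.000446). Col4a6 averaged 7.47 ± 0.33 and 8.05 ± 0.32 (-0.58, SE 0.12, adjusted p = 0.000136). Col9a3, Col2a1 and Col25a1 were also higher with R, and Col6a3 and Col1a1 lower. Without tumour 3854, the calls of Col1a1, Col2a1 and Col25a1 were lost (adjusted p = 0.249, 0.249 and 0.133). All arrays with R lie in array set 3, which holds 1 array without it, so that the suffix and the array set can barely be told apart. With the array set as a covariate, limma called 0 chains and 0 genes, and 0 chains reached an unadjusted p under 0.05. Of all 12560 genes, 68 were higher and 95 lower at that unadjusted p.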

How the data were processed

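Total RNA of 68 mammary tumours was biotin-labelled and measured on Affymetrix arrays, per the labels' protocols. Per the submitters' processing notes, the authors applied RMA, with version, build and log base not given in the sources used here. From their range (1.68 to 14.57), the deposited values are read as log2. The number of arrays limits the precision. Of 45101 probe sets, 34958 have 1 gene symbol in the platform annotation. Those with several (932) or none named no gene. Array sets were searched for in the values: 20 or more probe sets from 10 or more chromosomes had to split the arrays identically, with Ashman's D over 4.5. Array set 2 is the 12 arrays left out. Genes were fitted with limma 3.58.1 (lmFit, eBayes; R 4.3.3) on the standardised value of Col1a1, Col4a1 or Col17a1, the reference gene itself left out. Adjusted p-values are Benjamini-Hochberg values over all tested genes, with a threshold of 0.05. Of 24 chain pairs, 22 had both chains tested, and permutation tests were two-sided (100000 draws, exact under 10 arrays). Both procedures were tested on simulated data. Named genes are all collagen chains, members of 14 lists, and the 10 genes most like each reference. The members and lists were chosen with earlier results of these data known. The alternatives concerned covariates, filter, probe set, arrays used and single tumours.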

Additional observations from a re-analysis of the deposited data

How the results depend on the processing

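The covariate for array sets, centring within them and leaving out tumour 3854 were chosen after seeing the data. Over all alternatives, 1508 fits of single chains stayed on their side of the threshold, 48 passed newly, 48 no longer passed and 11 were reversed. For chain pairs these counts were 206, 8, 4 and 1. Reversed means a change of sign where the main result or the alternative passed. Results that passed in neither count as having stayed, even where their sign changed. The number of pairs past the threshold, 14 of 22, ranged from 13 to 16. Chains lower with Col1a1 (2) numbered 0 in array set 1, without suffix R and without tumour 3854, and 1 with the array set as covariate, the probe sets of largest SD, all 68 arrays or the second probe set of Col1a1. With all 68 arrays, 21 chains were higher with Col1a1, 15 with Col4a1 and 2 with Col17a1, 0 by number range, and 2 each way by suffix R. There the slopes on Col1a1 turned to 0.23 for Col4a1, 0.081 for Col4a5 and 0.19 for Col9a3, those on Col4a1 to 0.36 for Col1a1, 0.26 for Col3a1, 0.18 for Col5a1 and 0.15 for Col6a2, and r of Col1a1 with Col4a1 to 0.392. With the probe sets of largest SD, 5 chains were higher with Col4a1, among them the fibril-associated Col9a3 and Col16a1. Chains higher with Col17a1 (1) numbered 3 in array set 1, and 2 without suffix R, without tumour 3854 or with the array set as covariate, and chains lower (0) numbered 1, 3, 2 and 0. By number range, 0 chains were higher in array set 1 and with the array set as covariate, where the slope of Col1a1 in array set 1 was -0.068. Without suffix R, 4 were higher and 2 lower, and without tumour 3854 1 was lower. By suffix R, 0 chains passed either way with the array set as covariate, where Col25a1 turned to -0.41, and 2 were higher without tumour 3854. The slope of Col8a2 on Col1a1 (-0.03) was 0.17 without suffix R and 0.15 without tumour 3854. The cause of these changes was not tested. Leaving out any 1 tumour gave 11 to 13 chains higher and 0 to 2 lower with Col1a1, 2 to 3 higher with Col4a1, and 1 to 2 higher and 0 to 2 lower with Col17a1. The Col12a1 call was lost without tumour 3039, 3296, 3351, 3854, 4955, 4958 or 4979, and that of Col25a1 without 3299, 3547, 3853, 3854, 4958, 4967, 4971 or 4978. With Col1a1, Col16a1 passed without 3739 or 3854, Col8a2 without 3854, and Col8a1 without 2703, 3394, 3827, 3852, 4955, 4966, 4977, 4978 or 4980. With Col17a1, Col4a5 passed without 3854 or 3890, Col9a1 without 3199, 3824, 3854, 3890 or 4979, and Col8a1 without 3569, 3854, 3890 or 4979. No paired analysis was possible because the labels give 1 group.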
